A study of Mus musculus with 2 samples.

Results

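Granulocyte nuclei were identified among nuclei of tdTomato+ marrow cells by their RNA for proteins of the secondary (specific) granules, the storage vesicles that neutrophils fill while they mature. A barcode was taken as a granulocyte nucleus when Ltf, Ngp, Camp, Lcn2, Mmp8, Chil3, Retnlg and Cd177 together held at least 0.3% of its non-mitochondrial UMIs (unique molecular identifiers, each standing for 1 RNA molecule), with at least 3 UMIs from at least 2 of these genes, and when the complement genes of macrophages, C1qa, C1qb and C1qc, held under 0.2%. Barcodes entered with at least 500 non-mitochondrial UMIs and 1000 ATAC counts, and no limit was set on mitochondrial UMIs. Of 4481 such barcodes, 110 (2.45%, exact 95% binomial interval 2.02 to 2.95%) were granulocyte nuclei. Before the limit on complement genes there were 111, and the barcode that this limit removed had 0.201% of its UMIs from them.

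Femur marrow was taken at postnatal day 21 from mice of the genotype Prrx1-cre; R26R (tdTomato/+), tdTomato+ cells were sorted from it, and RNA and open chromatin (ATAC, transposase insertions in accessible DNA) were measured in the same nuclei by 10x Multiome. Prrx1-cre recombines in the mesenchyme of the limb bud, so the reporter is a label for skeletal and stromal cells, and all barcodes described here carried the same alleles and passed the same sort. There was 1 library of each kind, and the study's methods describe pooled tdTomato+ cells of male and female littermates for its single-cell libraries without naming the Multiome library there. Nuclei of 1 library are no replicates of animals, so no difference below was tested, and every interval covers counting error only.

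Neutrophils arise from myeloid progenitors through promyelocytes, myelocytes and metamyelocytes, and the granules are made in that order. Primary granules carry myeloperoxidase and serine proteases, secondary granules carry lactoferrin and the cathelicidin, and tertiary granules carry gelatinase, so the granule genes that a nucleus transcribes mark its stage. C/EBP epsilon is known to drive the secondary granule genes, and PU.1 is needed for the myeloid lineage as a whole.

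The granulocyte nuclei were shallow. They had a median of 1151.5 non-mitochondrial UMIs (range 525 to 15280), 412 genes and 19192 ATAC counts (range 1793 to 573625), against medians of 1716 UMIs, 707 genes and 34334 ATAC counts in the other 4371 barcodes. Transcripts overlapping ribosomal RNA (Gm42418, AY036118 and Lars2) took a median of 48.7% of their UMIs, against 37.7% in the others, and were left out of all CPM (counts scaled to a total of 1000000). The median share of mitochondrial UMIs was 9.63% in granulocyte nuclei, against 16.6% in the others. At most 10% mitochondrial UMIs were found in 56 of the 110 nuclei (50.9%), against 30.9% of the other barcodes. The 110 nuclei gave 227159 UMIs and 4192261 ATAC counts in all, and 8 nuclei in the top 5% of depth held 34.7% of these UMIs and 41.6% of these ATAC counts. A gene with 0 UMIs in the 110 nuclei may still have been present at up to 21.2 CPM, the level of 3 UMIs.

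The granule genes that chose the nuclei held between 0.315 and 10.0% of UMIs per nucleus, with a median of 1.69%. In UMIs this was between 3 and 320, with a median of 19, so single nuclei rest on few molecules. Ngp (neutrophilic granule protein) gave 1430 UMIs in 94 of the nuclei, Camp (cathelicidin) 1356 in 95 and Ltf (lactoferrin) 1038 in 84. Together these 3 transcripts made up most of the signal. Chil3 (a chitinase-like lectin) followed with 382 UMIs in 60 nuclei, Lcn2 (lipocalin, which binds iron carriers of bacteria) with 339 in 78, and Retnlg (resistin-like gamma) with 165 in 44. The rarest were Cd177, a surface glycoprotein of neutrophils, with 91 UMIs in 41 nuclei, and Mmp8, the neutrophil collagenase, with 82 in 29. All 8 genes were seen in 5 nuclei, 7 in 14, 6 in 23, 5 in 24, 4 in 14, 3 in 13 and only 2 in 17. The 5 nuclei just inside the threshold had shares of 0.315, 0.343, 0.350, 0.352 and 0.363%, and the 5 barcodes just outside it 0.294, 0.290, 0.282, 0.278 and 0.278%.

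The levels themselves follow from the rule and are given as a description. Summed over nuclei, Ltf stood at 7352 CPM (6912 to 7813) in granulocyte nuclei, against 31.2 CPM in the other barcodes. Per nucleus, Ltf ranged from 0 to 42919 CPM with a median of 4094 CPM in granulocyte nuclei, against a median of 0 in the others. Camp and Ngp lay in the same range, at 9604 and 10129 CPM in granulocyte nuclei, against 75 and 56 CPM in the others. With each barcode thinned to 500 UMIs, Ngp was seen in 73.6% of granulocyte nuclei, against 2.93% of the other barcodes and 2.63% of 152 erythroid nuclei, a type that does not make it. Median depth was 1151.5 UMIs in granulocyte nuclei and 1483 UMIs in erythroid nuclei. Barcodes taken as free RNA, which held 100 to 400 UMIs but under 500 ATAC counts, had Ngp at 346 CPM and Ltf at 216 CPM, above the levels of the other barcodes.

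Open chromatin, which the rule did not use, was read first over 14 myeloid loci (Spi1, Csf3r, Itgam, Cybb and others) and 14 stromal loci (Prrx1, Twist1, Runx2, Col1a1 and others), each a gene with 3 kb upstream. Myeloid counts exceeded stromal counts in 88 of the 110 granulocyte nuclei (80%, 71.3 to 87.0%), were equal in 1 and lower in 21, against 18.1% of the other barcodes with more myeloid counts. This was so in 89.0% of 182 macrophage nuclei, 87.5% of 40 early myeloid nuclei, which were chosen by Mpo, Elane, Prtn3, Ctsg and Ms4a3, and 32.9% of erythroid nuclei, chosen by red cell genes without the globins. The stromal loci gave more counts in the library as a whole, at a mean of 47.8 per barcode, against 18 at the myeloid loci. With each sum divided by its mean over all barcodes, the myeloid value was the higher in 98 of the 110 granulocyte nuclei (89.1%, 81.7 to 94.2%), against 29.2% of the other barcodes. Per nucleus the myeloid loci held a median of 17.9 of 10000 ATAC counts and the stromal loci 4.45 of 10000.

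The chromatin of a nucleus varied with its granule share. In nuclei with 0.3 to 0.5% granule UMIs, 6 of 19 (31.6%, 12.6 to 56.6%) had more myeloid than stromal counts. From 0.5 to 1% these were 15 of 20 nuclei, from 1 to 2% 26 of 28, from 2 to 5% 28 of 30 and at 5% or more 13 of 13. Of the 21 nuclei with more stromal counts, 13 thus stood in the lowest band. Outside the rule, barcodes with 0.1 to 0.3% granule UMIs had more myeloid counts in 23.8%, and barcodes with no granule UMI in 18.5%. With both sums divided by their means, the bands of granulocyte nuclei gave 10 of 19, 18 of 20, 27 of 28, 30 of 30 and 13 of 13.

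**Figure D1:**
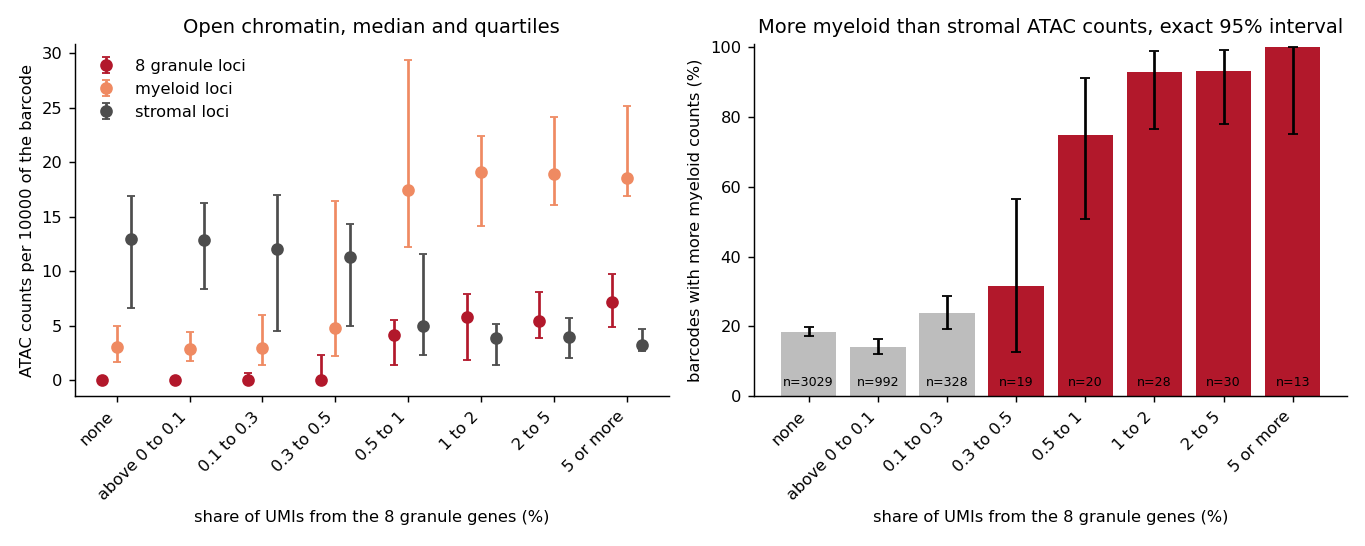
Open chromatin by the share of UMIs from the 8 granule genes (x axis, %). Left, ATAC counts per 10000 of a barcode at granule, myeloid and stromal loci (points, medians; lines, quartiles); right, share of barcodes with more myeloid than stromal ATAC counts, not scaled (bars; lines, exact 95% binomial intervals; red, granulocyte nuclei), which was 31.6% at 0.3 to 0.5%, 75% at 0.5 to 1% and at least 92.9% in each higher band.

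The chromatin of the 8 granule loci themselves followed the same order. Counts at these loci summed to 388 CPM of ATAC (369 to 407) in granulocyte nuclei, against 172 CPM in early myeloid nuclei, 42.4 CPM in macrophage nuclei, 12.1 CPM in erythroid nuclei and 29.2 CPM in all other barcodes. Per nucleus they ranged from 0 to 17.6 of 10000 ATAC counts with a median of 4.86, and 91 of the 110 nuclei had at least 1 count. By granule share, the sum was 171 CPM at 0.3 to 0.5%, 348 CPM at 0.5 to 1%, 411 CPM at 1 to 2%, 601 CPM at 2 to 5% and 720 CPM at 5% or more. Barcodes without a granule UMI stood at 27.3 CPM.

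Locus by locus, summed over the gene and 3 kb upstream, Ltf stood highest, with 75.1 CPM of ATAC in granulocyte nuclei. Ltf had 18.5 CPM in early myeloid nuclei, 11.7 CPM in macrophage nuclei and 3.10 CPM in the other barcodes. Ngp had 63.9 CPM in granulocyte nuclei, against 22.1 CPM in early myeloid nuclei and 1.19 CPM in the others. At the start peaks alone, Ngp stood above Ltf, at 63.9 and 32.7 CPM. Cd177 had 60.1 CPM in granulocyte nuclei, against 9.86 CPM in early myeloid nuclei and 1.21 CPM in the others. Retnlg had 30.5 CPM in granulocyte nuclei, against 4.34 CPM in early myeloid nuclei and 0.430 CPM in the others. The loci of Ltf, Ngp, Cd177 and Retnlg were thus opener in granulocyte nuclei than in early myeloid nuclei beyond the counting intervals. Chil3 was not separated between them, at 41.7 CPM in granulocyte nuclei and 41.0 CPM in early myeloid nuclei. Its RNA was at 2706 CPM in granulocyte nuclei, against 28.5 CPM in early myeloid nuclei. That RNA difference follows from the rule, since early myeloid nuclei were taken only from barcodes outside it. Camp had the least contrast with the other barcodes, at 48.2 CPM in granulocyte nuclei, against 15.5 CPM in the others, where 825 barcodes had a count at its start.

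The promoters of the granule genes are shown because their RNA defines these nuclei and because most of them carried a match to TTGCNNAA, a relaxed form of the C/EBP palindrome. The 250 bases before the start of each gene are from RefSeq (GRCm38.p6), read in the direction of transcription, and all 8 rule genes matched an entry. Capitals mark matches, on either strand, to C/EBP (TTGCNNAA), PU.1 (AGGAAGT) or RUNX (TGTGGT).
Ltf, chr9:111019042-111019291 (+): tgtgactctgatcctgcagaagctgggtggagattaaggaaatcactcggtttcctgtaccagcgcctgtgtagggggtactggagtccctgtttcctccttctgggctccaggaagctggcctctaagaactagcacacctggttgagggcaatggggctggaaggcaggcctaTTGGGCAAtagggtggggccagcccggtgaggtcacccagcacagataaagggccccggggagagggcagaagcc
Ngp, chr9:110419558-110419807 (+): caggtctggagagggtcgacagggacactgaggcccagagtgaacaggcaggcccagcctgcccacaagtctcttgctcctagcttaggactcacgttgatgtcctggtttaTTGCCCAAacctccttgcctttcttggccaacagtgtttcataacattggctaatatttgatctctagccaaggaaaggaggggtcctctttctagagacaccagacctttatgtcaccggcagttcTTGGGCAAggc
Lcn2, chr2:32387740-32387989 (-): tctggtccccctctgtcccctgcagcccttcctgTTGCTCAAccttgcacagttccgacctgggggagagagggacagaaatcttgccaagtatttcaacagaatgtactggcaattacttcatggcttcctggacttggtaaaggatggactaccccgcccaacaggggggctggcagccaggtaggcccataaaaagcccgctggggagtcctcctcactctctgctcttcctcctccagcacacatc
Mmp8, chr9:7558179-7558428 (+): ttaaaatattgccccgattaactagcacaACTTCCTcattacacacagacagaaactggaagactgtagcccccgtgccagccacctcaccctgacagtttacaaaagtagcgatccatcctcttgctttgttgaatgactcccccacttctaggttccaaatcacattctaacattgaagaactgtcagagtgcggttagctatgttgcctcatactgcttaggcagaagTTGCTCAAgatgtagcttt
Retnlg, chr16:48872358-48872607 (+): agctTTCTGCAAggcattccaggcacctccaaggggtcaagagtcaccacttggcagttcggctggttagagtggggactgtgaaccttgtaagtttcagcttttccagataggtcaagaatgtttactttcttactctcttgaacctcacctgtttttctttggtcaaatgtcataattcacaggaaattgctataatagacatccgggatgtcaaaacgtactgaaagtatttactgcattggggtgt
S100a9, chr3:90695722-90695971 (-): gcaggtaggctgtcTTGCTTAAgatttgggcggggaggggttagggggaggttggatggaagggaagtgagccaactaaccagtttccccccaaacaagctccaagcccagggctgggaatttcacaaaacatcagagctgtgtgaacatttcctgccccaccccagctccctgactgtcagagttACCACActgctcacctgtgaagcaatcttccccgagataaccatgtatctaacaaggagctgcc
Camp, chr9:109849457-109849706 (-): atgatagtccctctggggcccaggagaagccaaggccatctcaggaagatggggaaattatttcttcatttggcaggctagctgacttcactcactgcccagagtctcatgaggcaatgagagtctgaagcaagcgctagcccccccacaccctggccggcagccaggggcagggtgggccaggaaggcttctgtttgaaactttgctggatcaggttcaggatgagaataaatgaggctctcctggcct
A C/EBP match was found in 5 of the 8 rule genes (Ltf, Ngp, Lcn2, Mmp8 and Retnlg), and Ngp held 2. Of 32851 RefSeq promoters of this length, 9.56% held one. A PU.1 match was found in Mmp8 and Chil3, 2 of the 8, against 7.69% of all promoters, and no RUNX match in the 8, against 14.0%. The Camp promoter held none of the 3 motifs in this window, and neither did that of Cd177, which is not shown. The central 300 bases of the Camp start peak, which reach further upstream, held 1 C/EBP match. S100a9, which was not part of the rule, held a C/EBP and a RUNX match. A match describes letters in this window and not a bound site.

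Over each of these starts except Chil3, a peak of accessibility lay within 1 kb. The Ngp peak had 268 counts in granulocyte nuclei, against 199 counts in all other barcodes together, which is 63.9 and 1.19 CPM. The Ltf peak had 137 counts in granulocyte nuclei, against 114 counts in the others (32.7 and 0.681 CPM). At Cd177 the start peak had 82 counts in granulocyte nuclei, against 40 in the others, and at Retnlg 55 against 22. These 110 nuclei thus held more of the insertions in the start peaks of Ngp, Ltf, Cd177 and Retnlg than the other 4371 barcodes together. Over the whole Ltf gene with 3 kb upstream, granulocyte nuclei had 315 counts, against 519 in the others. The Lcn2 peak had 150 counts in granulocyte nuclei, against 360 in the others (35.8 and 2.15 CPM), and the Mmp8 peak 52 against 197 (12.4 and 1.18 CPM). For Chil3 the nearest peaks lay at -2459 and -3195 bases from the start, with 53 and 122 counts in granulocyte nuclei, against 49 and 144 in the others. The peaks at S100a9 and S100a8, which the rule did not use, had 220 and 216 counts in granulocyte nuclei, against 173 and 363 in the others.

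**Figure D2:**
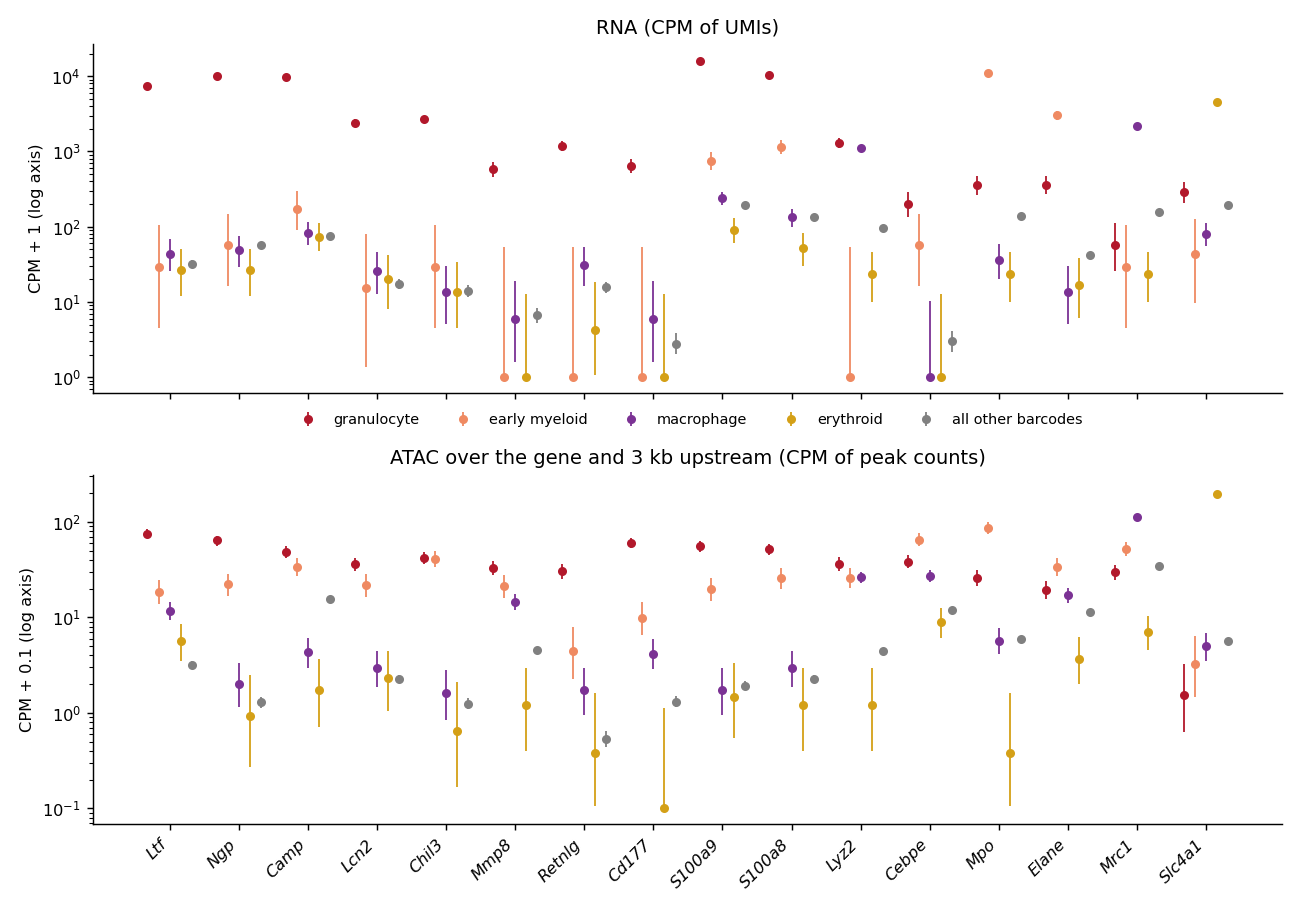
RNA (top, CPM of UMIs plus 1, log axis) and ATAC over the gene and 3 kb upstream (bottom, CPM of peak counts plus 0.1, log axis) of 16 genes in granulocyte nuclei, early myeloid, macrophage and erythroid nuclei and all other barcodes. Points are summed levels and lines exact 95% Poisson intervals. Granulocyte nuclei stood highest at all 8 granule genes in RNA, while Mpo and Elane were highest in early myeloid nuclei. Both follow from how the sets were chosen.

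Across all 202515 peaks with at least 50 counts, 21664 (10.7%) were at least 2-fold higher in granulocyte nuclei and 68643 (33.9%) at least 2-fold lower. The 95% intervals were apart as well for 15583 (7.69%) and 33578 (16.6%) of all peaks. The peaks of highest ratio were low in counts, most of which lay in these nuclei. The top one, at chr9:111008514-111009320, at -10354 bases from the Ltf start, had 92 counts in granulocyte nuclei, against 31 counts in the others (21.9 and 0.185 CPM). A peak at -5720 bases from the Cd177 start had 68 counts in granulocyte nuclei, against 34 in the others, and a peak over the gene Gm45253 had 60 against 32. Other leading peaks lay over Umad1 on chromosome 6, over C530008M17Rik on chromosome 5, over D630014O11Rik and Galnt14 on chromosome 17 and, on chromosomes 2 and 13, over no gene. Just behind the top 10, a peak 3834 bases from the Ngp start had 280 counts in granulocyte nuclei, against 180 in the others.

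Of these, 3 are shown as the central 300 bases of the peak (GRCm38, plus strand), since they stood at or near the top by ratio and differ in motif content. Capitals mark the same motifs.
Gm45253 peak, chr8:46376130-46376429 (+): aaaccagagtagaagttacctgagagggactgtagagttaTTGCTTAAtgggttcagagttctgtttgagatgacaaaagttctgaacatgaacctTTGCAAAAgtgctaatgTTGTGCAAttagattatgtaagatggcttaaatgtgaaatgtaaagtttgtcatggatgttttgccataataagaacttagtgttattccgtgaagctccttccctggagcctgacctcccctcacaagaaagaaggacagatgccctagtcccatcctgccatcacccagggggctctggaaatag
Cd177 upstream peak, chr7:24765882-24766181 (+): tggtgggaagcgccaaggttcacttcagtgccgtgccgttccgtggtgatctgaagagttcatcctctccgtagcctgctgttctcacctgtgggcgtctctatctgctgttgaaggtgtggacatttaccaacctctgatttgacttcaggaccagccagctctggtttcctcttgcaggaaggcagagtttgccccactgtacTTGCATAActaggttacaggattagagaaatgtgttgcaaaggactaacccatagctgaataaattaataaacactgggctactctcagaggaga
Ltf upstream peak, chr9:111008767-111009066 (+): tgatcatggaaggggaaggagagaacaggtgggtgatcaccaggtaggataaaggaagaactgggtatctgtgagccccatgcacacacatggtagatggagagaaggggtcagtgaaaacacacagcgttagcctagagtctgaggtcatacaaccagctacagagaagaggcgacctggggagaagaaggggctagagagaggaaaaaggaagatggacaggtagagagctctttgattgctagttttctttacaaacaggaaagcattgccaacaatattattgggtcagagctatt
The Gm45253 peak held 3 C/EBP matches, the Cd177 upstream peak 1, and the Ltf upstream peak none of the 3 motifs.

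The 1000 peaks of highest ratio had at least 19 counts each in granulocyte nuclei (median 64) and a log2 ratio of at least 4.11. The C/EBP motif was found in the central 300 bases of 38.6% of them (35.6 to 41.7%), against 15.0% of all 202472 peaks read. PU.1 (AGGAAGT) was found in 27.5% (24.8 to 30.4%), against 12.1%. Both are factors of the granulocyte lineage. RUNX was found in 34.3%, against 32.4%, and AGATAA, which erythroid GATA factors bind, in 12%, against 12.1%, and GFI1 (AATCNNNG) in 30.0%, against 32.6%. Motifs less frequent in the top peaks were AP-1 (TGANTCA) with 9.80%, against 20.4%, TEAD (GGAATG) with 10.3%, against 18.3%, EBF (CCCNNGGG) with 6.50%, against 11.4%, and CTCF (CCACNAGG) with 4.60%, against 7.15%. Median GC content was 46.0% in the top peaks and 48.0% in all peaks. The part of GC content in these shares was not tested. The top peaks lay within 1 kb of a gene start in 5.2%, against 8.86% of all peaks, and 1 to 50 kb away in 72.3%, against 63.7%. Genes of the granulocyte lists lay under 36 of the 1000, the 8 rule genes under 10, and Prkcb, a protein kinase C that acts in the neutrophil oxidative burst, under 5. The share of all peaks that lie over these genes is not given, so these counts are a description only.

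**Figure D3:**
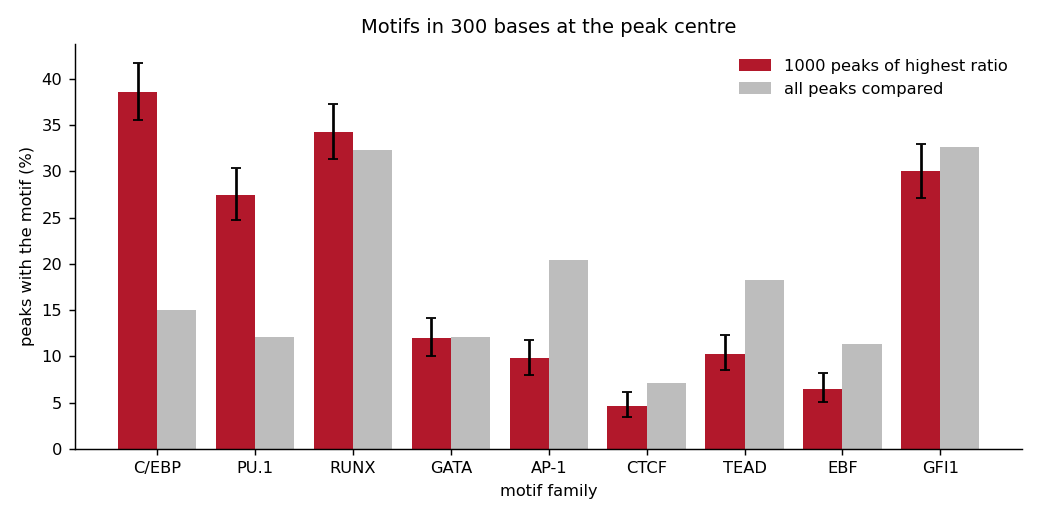
Share of peaks (y axis, %) whose central 300 bases held each motif, in the 1000 peaks of highest ratio in granulocyte nuclei (red; lines, exact 95% binomial intervals) and in all peaks (grey). C/EBP stood at 38.6% against 15.0% and PU.1 at 27.5% against 12.1%, while AP-1 stood at 9.80% against 20.4%.

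Genes that the rule did not name are described by list below. A gene was compared when it had at least 20 UMIs over granulocyte nuclei and other barcodes, and called at a 2-fold difference with 0.5 counts added to each side. Of 13578 genes compared in RNA, 2402 (17.7%) were called higher and 2030 (15.0%) lower, and for 883 (6.50%) and 496 (3.65%) of all the 95% intervals were apart as well. In chromatin, over each gene with 3 kb upstream and at least 50 counts, 1405 of 24484 loci (5.74%) were called higher and 3822 (15.6%) lower, with intervals apart for 5.21% and 12.4%. Loci called lower were 7055 without the deep barcodes, and with at most 10% mitochondrial UMIs 2709 were called higher and 7278 lower. The median log2 ratio over all features was 0.04 in RNA and -0.07 in chromatin. All these shares are for the comparison with all other barcodes. For early myeloid and macrophage nuclei no share over all features is given, so calls against them below have no such share beside them.

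**Figure D4:**
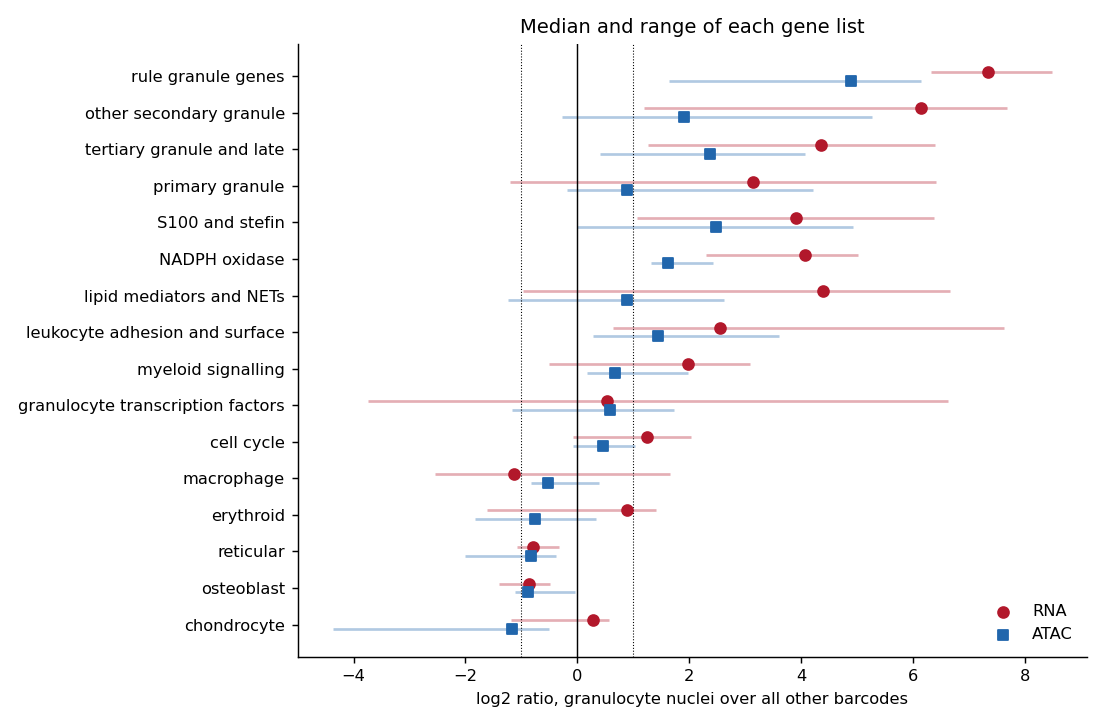
Log2 ratio of granulocyte nuclei over all other barcodes (x axis) for 16 gene lists, in RNA (red circles) and in ATAC over the gene and 3 kb upstream (blue squares). Points are medians and lines the range over the genes compared; dotted lines mark a 2-fold difference, and the 8 rule genes, which chose the nuclei, had medians of 7.34 in RNA and 4.89 in ATAC.

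The alarmins S100a8 and S100a9, the calcium-binding pair that fills the neutrophil cytosol, were the most abundant granulocyte transcripts. S100a9 stood at 15809 CPM (15160 to 16479) in granulocyte nuclei and was seen in 104 of them, against 190 CPM in the others. S100a8 stood at 10214 CPM (9693 to 10755) in 102 nuclei, against 133 CPM in the others. Per nucleus, S100a9 ranged from 0 to 74214 CPM with a median of 19546 CPM in granulocyte nuclei, against a median of 0 and a highest value of 25532 CPM in the others, so the ranges overlapped. Thinned to 500 UMIs, S100a9 was seen in 84.5% of granulocyte nuclei, against 6.58% of erythroid nuclei and 8.19% of all other barcodes. All 4 genes compared in the list of S100 proteins and stefins were called higher in RNA, S100a6 and S100a11 by log2 ratios of 1.06 and 1.56. In chromatin 2 of the 4 were called higher, S100a9 and S100a8 with log2 ratios of 4.92 and 4.57, whereas S100a6 and S100a11 stood at 0.40 and -0.01. The stefins Stfa1, Stfa2 and Stfa2l1, protease inhibitors of neutrophils with near-identical copies, had 6, 4 and 12 UMIs in granulocyte nuclei and were too rare to compare.

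Of the other secondary granule genes, 9 of 9 compared were called higher in RNA, with intervals apart for all 9 and a median log2 ratio of 6.14. That median was 2.12 with barcodes thinned to 500 UMIs, 3.20 over genes with at least 50 UMIs and 9.03 with free RNA subtracted. Olfm4 (olfactomedin, made by a subset of neutrophils) stood at 212 CPM in granulocyte nuclei, against 1.0 CPM in the others, from 30 UMIs in only 5 nuclei. Wfdc21, a small protein of the whey acidic family, stood at 333 CPM, against 1.88 CPM, and Itgb2l, an integrin beta chain, at 149 CPM, against 1.22 CPM. Pglyrp1, which binds bacterial peptidoglycan, stood at 637 CPM in granulocyte nuclei, against 6.76 CPM in the others. Lyz2 (lysozyme) was shared with macrophages, at 1289 CPM in granulocyte nuclei, against 1112 CPM in macrophage nuclei and 94.6 CPM in all other barcodes. In chromatin 7 of 10 were called higher, with a median log2 ratio of 1.90. Against early myeloid nuclei, 1 of 8 loci compared was called higher, with a median log2 ratio of 0.47. Itgb2l had the widest difference, with 63.7 CPM of ATAC in granulocyte nuclei, against 1.66 CPM in the others, and Mcemp1, a membrane protein of mast cells and neutrophils, had 58.0 CPM, against 3.30 CPM. Olfm4 showed no such difference, with 14 counts, 3.34 CPM in granulocyte nuclei and 4.17 CPM in the others.

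Primary granule genes were present at lower levels. The early myeloid nuclei were chosen by Mpo, Elane, Prtn3, Ctsg and Ms4a3, so higher levels of these genes there follow from that choice. Against early myeloid nuclei, 5 of 8 genes compared were called lower in granulocyte nuclei and 2 higher. Elane (neutrophil elastase) stood at 361 CPM (269 to 475) in granulocyte nuclei, against 3046 CPM in early myeloid nuclei and 41.2 CPM in all other barcodes. Mpo (myeloperoxidase) stood at 354 CPM (263 to 467) in granulocyte nuclei, against 10876 CPM in early myeloid nuclei, which were chosen by such genes, and 139 CPM in all other barcodes. Both were confined to few nuclei, 14 for Elane and 17 for Mpo. Of 11 genes compared with all other barcodes, 9 were called higher (8 with intervals apart) and 1 lower, with a median log2 ratio of 3.14. Fcnb (ficolin B, a lectin of the complement system) was the highest, at 630 CPM in 27 granulocyte nuclei, against 228 CPM in early myeloid nuclei and 7.42 CPM in the others. Ms4a3, a membrane protein of granulocyte and monocyte progenitors, stood at 135 CPM, against 11.9 CPM in the others. The gene called lower was Ctsc (cathepsin C, which activates the serine proteases), at 49.6 CPM in granulocyte nuclei, against 122 CPM in the others and 973 CPM in macrophage nuclei. In chromatin 5 of 12 were called higher, with a median log2 ratio of 0.89. Mpo had 25.8 CPM of ATAC in granulocyte nuclei, against 5.83 CPM in the others, while the loci of Elane and Prtn3 (proteinase 3) had log2 ratios of 0.79 and 0.57.

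Genes of tertiary granules and of late maturation were called higher in RNA for 16 of 16 compared, 14 of them with intervals apart, at a median log2 ratio of 4.34. Fpr1, the receptor for formylated bacterial peptides, stood at 85.0 CPM in granulocyte nuclei, against 1.0 CPM in the others, from 12 UMIs. Cxcr2, the chemokine receptor that guides neutrophils out of the marrow, stood at 106 CPM, against 1.88 CPM. Trem3 and Trem1, receptors that amplify myeloid activation, stood at 184 and 85.0 CPM in granulocyte nuclei, against 3.43 and 1.66 CPM in the others. Mmp9 (gelatinase) stood at 616 CPM (494 to 760) in granulocyte nuclei, against 257 CPM in the other barcodes. In chromatin 15 of 17 were called higher, at a median log2 ratio of 2.36. Against early myeloid nuclei, however, 1 of 17 loci was called higher and 2 lower, at a median log2 ratio of 0.05. These loci summed to 903 CPM of ATAC in granulocyte nuclei, 786 CPM in early myeloid nuclei and 525 CPM in macrophage nuclei. Hdc, which makes histamine, had 113 CPM of ATAC in granulocyte nuclei, against 22.0 CPM in the others, and Clec4d, a lectin receptor, had 55.8 CPM, against 5.43 CPM.

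The 6 genes of the NADPH oxidase, which makes superoxide in phagocytes, were all called higher with intervals apart in RNA, at a median log2 ratio of 4.07. Cybb, the catalytic subunit, stood at 1445 CPM (1253 to 1657) in granulocyte nuclei, against 398 CPM in macrophage nuclei and 44.9 CPM in all other barcodes. The cytosolic subunits Ncf1 and Ncf4 stood at 652 and 149 CPM in granulocyte nuclei, against 32.3 and 8.20 CPM in the others. Their loci were likewise called higher in chromatin, 6 of 6 with a median log2 ratio of 1.62, Ncf4 by 2.41. Counted only in peaks within 1 kb of the start, however, Ncf1 turned to a log2 ratio of -1.30. Against early myeloid nuclei and against macrophage nuclei, 0 of the 6 loci were called higher or lower. The 6 loci summed to 558 CPM of ATAC in granulocyte nuclei, 532 CPM in early myeloid nuclei and 423 CPM in macrophage nuclei.

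Transcription factors of the lineage gave a mixed picture, with 7 of 18 called higher in RNA, 2 lower and a median log2 ratio of 0.53, which was -0.24 when nuclei and other barcodes were limited to at most 10% mitochondrial UMIs. Cebpe, the C/EBP factor of the secondary granule stage, stood at 198 CPM (132 to 287) in granulocyte nuclei, against 56.9 CPM in early myeloid nuclei and 1.99 CPM in all other barcodes, from 28 UMIs in 18 nuclei. Also called higher were Nfe2 (77.9 CPM, against 9.53 CPM), Spi1, which encodes PU.1 (127 CPM, against 23.6 CPM), Ikzf1 (368 CPM, against 89.9 CPM), Klf5 (56.7 CPM, against 15.3 CPM) and Fli1 (312 CPM, against 124 CPM). Gfi1, a repressor of monocyte genes, was called higher on 1 UMI, 7.08 CPM (0.179 to 39.5) in granulocyte nuclei and 4.43 CPM in the others, with overlapping intervals and only because of the counts added. Cebpa, the C/EBP factor of progenitors, also had 1 UMI, 7.08 CPM (0.179 to 39.5) in granulocyte nuclei, against 29.1 CPM in the others, and was called lower with overlapping intervals. Lef1 had 0 UMIs in granulocyte nuclei, which allows up to 21.2 CPM, against 47.5 CPM in the others. Runx1 (715 CPM, against 608 CPM), Zeb2 (630 CPM, against 928 CPM), Cebpb (234 CPM, against 200 CPM), Cebpd, Myb, Runx3, Xbp1, Rara and Irf8 were not called, with log2 ratios between -0.55 and 0.81. In chromatin 6 of 18 were called higher and Lef1 lower. Over all features, 17.7% of genes and 5.74% of loci were called higher against all other barcodes. Against early myeloid nuclei, 0 of the 18 loci were called higher or lower, a comparison for which no share over all loci is given. Spi1 had 188 CPM of ATAC in granulocyte nuclei, against 57.0 CPM in the others, Ikzf1 111 CPM, against 34.3 CPM, Nfe2 135 CPM, against 47.7 CPM, and Cebpe 38.2 CPM, against 12 CPM. Myb, the progenitor factor, was among the 6 as well, with 67.7 CPM of ATAC in granulocyte nuclei, against 27.1 CPM in the others, while its RNA rested on 9 UMIs. Irf8, the factor of the monocyte branch, went the other way in chromatin, at 31.5 CPM in granulocyte nuclei, against 58.8 CPM in the others, short of the 2-fold call.

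Leukocyte adhesion and surface genes were called higher in RNA for 14 of 16, with intervals apart for all 14. The list was shared with the other myeloid nuclei. It summed to 4838 CPM in granulocyte nuclei, 4960 CPM in macrophage nuclei and 3516 CPM in early myeloid nuclei. Ly6g, the antigen by which mouse neutrophils are sorted, stood at 227 CPM (155 to 320) in granulocyte nuclei, against 1.11 CPM in the others, from 32 UMIs in 19 nuclei. Itgam and Itgb2, which form the integrin Mac-1, stood at 446 and 177 CPM in granulocyte nuclei, against 19.6 and 21.0 CPM in the others. Coro1a, an actin-binding protein of leukocytes, stood at 850 CPM, against 64.5 CPM. The exceptions were Cd44 and Itga4, broadly expressed adhesion receptors, with log2 ratios of 0.64 and 0.99. In chromatin 12 of 15 were called higher, with a median log2 ratio of 1.45. The loci of the list summed to 1050 CPM of ATAC in granulocyte nuclei, 1053 CPM in macrophage nuclei and 1239 CPM in early myeloid nuclei. Itgb2 had 121 CPM of ATAC in granulocyte nuclei, against 22.8 CPM in the others, and Cd53, a tetraspanin of leukocytes, had 55.3 CPM, against 9.23 CPM.

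Signalling genes downstream of the colony-stimulating factor and Fc receptors were called higher for 13 of 16 in RNA, all with intervals apart, and for 6 of 16 in chromatin. The list stood higher in macrophage nuclei, at 4326 CPM of RNA and 1998 CPM of ATAC, against 2635 and 1568 CPM in granulocyte nuclei. Early myeloid nuclei stood at 2263 CPM of RNA and 1958 CPM of ATAC. Fgr, a Src family kinase, stood at 92.1 CPM in granulocyte nuclei, against 11.2 CPM in the others, and Csf2rb, the shared receptor chain, at 85.0 CPM, against 10.6 CPM. Prkcb stood at 382 CPM in granulocyte nuclei, against 55.5 CPM in the others, and its locus at 203 CPM of ATAC, against 51.5 CPM. Among genes of leukotrienes and of neutrophil extracellular traps, 6 of 7 compared were called higher in RNA (5 with intervals apart). Padi4, whose enzyme citrullinates histones in extracellular traps, stood at 170 CPM in granulocyte nuclei, against 1.66 CPM in the others. Ltb4r1, the leukotriene B4 receptor, stood at 212 CPM, against 3.54 CPM, and Alox5, which starts leukotriene synthesis, at 220 CPM, against 5.65 CPM. Alox5 also had the widest chromatin difference of the list, at 105 CPM of ATAC in granulocyte nuclei, against 17.1 CPM in the others. Against early myeloid nuclei, 0 of 7 loci of this list were called higher or lower.

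Outside the lists, the 10 genes of highest RNA ratio were Cstdc5, Abca13, Ifitm6, Acpp, Hsd11b1, Chil1, Pi16, Ipcef1, Lrg1 and Ly75. Cstdc5, of the stefin family, stood at 354 CPM in granulocyte nuclei, against 1.99 CPM in the others, but in only 7 nuclei. Abca13, a lipid transporter, stood at 347 CPM in 31 nuclei, against 2.77 CPM in the others, and Ifitm6, of the interferon-induced transmembrane family, at 255 CPM in 24 nuclei, against 2.99 CPM. Pi16, a peptidase inhibitor, was the most widely seen of the 10, with 297 CPM in 34 nuclei, against 5.21 CPM in the others. Lrg1, a glycoprotein that neutrophils store, stood at 212 CPM in 22 nuclei, against 5.65 CPM.

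Granulocyte nuclei were then divided by stage, by the RNA of each nucleus. A nucleus was called late when the tertiary and late genes with Retnlg and Mmp8 gave more UMIs than the primary granule genes, and early in the opposite case. There were 61 late nuclei, 30 early nuclei and 19 with equal counts. The genes of that rule differ by construction. Myeloid counts exceeded stromal counts in 54 of 61 late nuclei and 23 of 30 early nuclei, and in 11 of the 19 undecided nuclei. Late nuclei had a median of 4.47% mitochondrial UMIs, 1000 non-mitochondrial UMIs and 16326 ATAC counts, against 20.8%, 1947.5 and 36778 in early nuclei. Late nuclei were thus shallower, and 3 of them and 5 early nuclei were in the top 5% of depth. The part of depth and of mitochondrial share in the differences below was not tested.

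Among the rule genes not used for the stage, Ltf was higher in late nuclei, at 9520 CPM in late nuclei, against 4874 CPM in early nuclei. Without the 8 deep nuclei these were 13644 and 8266 CPM. Camp went the other way, with 6342 CPM in late nuclei, against 14746 CPM in early nuclei, and so did Chil3, with 1974 CPM, against 3660 CPM. Without the deep nuclei Camp stood at 10440 CPM in late nuclei, against 24103 CPM in early nuclei. Ngp stood at 8764 CPM in late nuclei, against 12479 CPM in early nuclei. The secondary granule genes thus did not move as a block between the stages. S100a9 was level, at 16157 CPM in late nuclei and 15995 CPM in early nuclei, with S100a8 at 8792 and 12479 CPM in the same order.

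**Figure D5:**
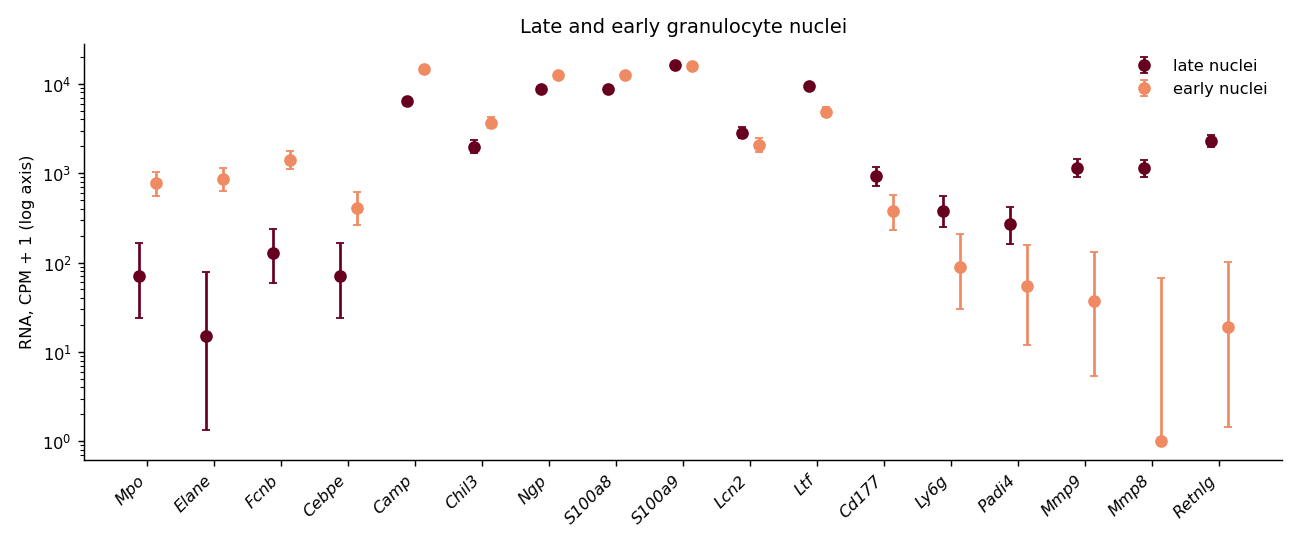
RNA of 17 genes (y axis, CPM plus 1, log axis) in 61 late and 30 early granulocyte nuclei (points, summed levels; lines, exact 95% Poisson intervals). Mpo, Elane, Fcnb, Mmp9, Mmp8 and Retnlg served to define the stages; of the others, Camp and Cebpe were higher in early nuclei and Ltf, Cd177, Ly6g and Padi4 in late nuclei.

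Cebpe was seen with 5 UMIs in late nuclei and 23 in early nuclei, 70.0 and 411 CPM. Its locus had 39.7 CPM of ATAC in late nuclei and 40.0 CPM in early nuclei, and 44.5 and 63.9 CPM in the same order without the deep nuclei. Myb had 0 UMIs in late nuclei and 8 UMIs in early nuclei, and its locus had 50.6 CPM of ATAC in late nuclei, against 85.8 CPM in early nuclei. Cebpa, at 1 UMI or none in either stage, likewise had a less open locus in late nuclei, at 45.7 CPM, against 82.9 CPM in early nuclei. Without the deep nuclei the loci of Myb and Cebpa stood at 53.3 and 33.8 CPM in late nuclei, against 116 and 85.2 CPM in early nuclei.

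Among surface and effector genes the stages differed by list. Ly6g had 27 UMIs in late nuclei and 5 in early nuclei (378 and 89.3 CPM), Cd177 stood at 924 CPM in late nuclei, against 375 CPM in early nuclei, and Padi4 at 266 CPM, against 53.6 CPM. The adhesion list summed to 6048 CPM (5491 to 6646) in late nuclei, against 3892 CPM (3392 to 4444) in early nuclei. The list of lipid mediators and extracellular traps, which holds Padi4, was at 1540 CPM (1266 to 1856) in late nuclei and 1553 CPM (1244 to 1916) in early nuclei, and the NADPH oxidase at 3304 CPM (2896 to 3754) and 3927 CPM (3426 to 4482) in the same order, with overlapping intervals. In chromatin, Mmp9 had 111 CPM of ATAC in late nuclei, against 56.5 CPM in early nuclei, and Retnlg 74 counts, against 42 counts. S100a9, level in RNA, had 74.6 CPM of ATAC in late nuclei, against 38.0 CPM in early nuclei, and Cd177 leaned the other way, with 49.4 CPM, against 65.8 CPM. The primary granule loci summed to 217 CPM of ATAC in late nuclei, against 308 CPM in early nuclei, and the tertiary and late loci to 1133 CPM, against 727 CPM, so that the chromatin of both lists lay in the direction of the RNA that set the stages.

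Genes of the cell cycle were called higher in RNA for 14 of 21 in granulocyte nuclei, 12 with intervals apart, at a median log2 ratio of 1.23, but for 1 of 21 in chromatin. Over all features, 17.7% of genes and 5.74% of loci were called higher. Hmgb2, a chromatin protein of dividing cells, stood at 1098 CPM in granulocyte nuclei, against 271 CPM in the others, and Mki67 at 545 CPM, against 218 CPM. The list summed to 3332 CPM (2922 to 3783) in late nuclei, against 4891 CPM (4329 to 5506) in early nuclei, and without the deep nuclei to 2687 CPM (2196 to 3256), against 5974 CPM (5114 to 6936). Top2a, the topoisomerase of replicating DNA, stood at 103 CPM in late nuclei, against 729 CPM in early nuclei, once the deep nuclei were left out, and at 350 and 446 CPM with them. Among the other barcodes, stromal and blood nuclei of all kinds are mixed, so these ratios set granulocyte nuclei against a mean of cell types.

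Markers of other cell types were read in the same nuclei. Of 12 macrophage genes, 11 were compared, 7 were called lower (4 with intervals apart) and 1 higher, with a median log2 ratio of -1.14. In chromatin 0 of 11 macrophage loci were called higher or lower, with a median log2 ratio of -0.52. Over all loci, 5.74% were called higher and 15.6% lower. Cd5l, Spic and Cd163, which define marrow macrophages, were at 0 UMIs in granulocyte nuclei, and at least 3 UMIs from at least 2 genes of the list were found in 5 nuclei (4.55%), against 15.6% of the other barcodes. The exception was Slc40a1 (ferroportin), at 198 CPM in granulocyte nuclei, against 64.0 CPM in the others and 530 CPM in macrophage nuclei. Epx, Mcpt8 and Cpa3, which define eosinophils, basophils and mast cells, were at 0, as were Cd3e, Itga2b and Cdh5, and none of the 110 nuclei had 3 UMIs from at least 2 genes of the eosinophil, basophil and mast cell, T and NK cell, megakaryocyte or endothelial lists. These lists gave 3, 7, 4 and 5 UMIs in that order. Of the genes compared, 2 of 2, 1 of 3, 1 of 3 and 0 of 6 were called higher, with intervals apart for 1 T and NK gene only. In chromatin 1 of 3, 0 of 6, 1 of 6 and 0 of 6 loci were called higher, and 1, 3, 0 and 3 lower. Over all genes, 17.7% were called higher in RNA and 15.0% lower.

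Erythroid genes were called higher for 5 of 15 and lower for 1, at a median log2 ratio of 0.88 in RNA, and in chromatin 0 of 13 were called higher and 5 lower. Over all features, 17.7% of genes were called higher and 15.0% lower, and 5.74% and 15.6% of loci. A single nucleus held 948 of the 1292 erythroid UMIs (73.4%). Hbb-bt, a beta globin, stood at 885 CPM in granulocyte nuclei, against 336 CPM in the others, a log2 ratio of 1.41 that was -0.72 without the 8 deep nuclei. Alas2 and Kel likewise had log2 ratios of 1.39 and 1.20, and of -1.06 and -1.50 without these nuclei. That nucleus had 10001 UMIs, 0.690% of them from the granule genes. Chondrocyte UMIs were distributed alike, with 1108 of 1637 (67.7%) in a nucleus of 15280 UMIs and a granule share of 0.419%, which had 4.80 of 10000 ATAC counts at myeloid loci and 11.3 of 10000 at stromal loci. In chromatin 4 of 8 chondrocyte loci were called lower and none higher. In late nuclei erythroid and chondrocyte genes stood at 15695 and 19349 CPM, against 2321 and 2571 CPM in early nuclei, and without the deep nuclei at 4031 and 6228 CPM, against 3160 and 3473 CPM. Their part in the late and early differences was not tested.

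Stromal transcripts were present in every granulocyte nucleus. Col1a1, the collagen of bone, stood at 34706 CPM in granulocyte nuclei, against 50355 CPM in the others and 120394 CPM in barcodes of free RNA, and at least 3 UMIs of the osteoblast list were found in 110 of 110 nuclei and in 100% of the other barcodes. In chromatin the Col1a1 locus stood at 45.1 CPM in granulocyte nuclei, against 82.5 CPM in the others. Against all other barcodes, osteoblast genes were called lower for 4 of 10 and reticular genes for 2 of 8, and none of either list was called higher. Over all genes in that comparison, 15.0% were called lower and 17.7% higher. The osteoblast list summed to 65099 CPM of RNA in granulocyte nuclei and was lower in the other blood nuclei. It stood at 33368 CPM in macrophage, 25994 CPM in early myeloid and 23593 CPM in erythroid nuclei. Its loci summed to 684 CPM of ATAC in granulocyte nuclei, against 339, 514 and 355 CPM in the same order. Deep nuclei held 39.9% of the osteoblast UMIs of granulocyte nuclei. If all Col1a1, Col1a2 and Sparc UMIs in these nuclei were free RNA, it would make up 31.2% of their UMIs, which is thus an upper estimate. The reporter transcript itself was seen in 12 of the 110 nuclei (10.9%, 5.77 to 18.3%), against 28.1% of the other barcodes, and after thinning to 500 UMIs in 1.82%, against 8.81%. Its level was 191 CPM (126 to 278) in granulocyte nuclei, from 27 UMIs, against 362 CPM in the others and 92.0 CPM in macrophage nuclei. Early myeloid and erythroid nuclei had the reporter transcript at 56.9 CPM (15.5 to 146) and 41.2 CPM (21.9 to 70.5). Free RNA had it at 148 CPM, inside the interval of the granulocyte nuclei. Late nuclei held 12 of the UMIs and early nuclei 11, but without the deep nuclei 2 and 2.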

How the data were processed

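RNA and ATAC were counted by the authors in 1 Multiome library pair with Cell Ranger ARC 2.0.0, as the file header gives it, on mm10, as the submitters' processing notes give it, and the deposited values are raw counts, UMIs for 32293 genes and insertions in 203545 peaks over 728634 barcodes. The deposited separate peak list was not used. The total was 35460453 UMIs and 191398837 ATAC counts.

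Barcodes were selected by the stated minimums and summed per set with Python 3.11.15, numpy 2.4.6, scipy 1.17.1 and pandas 2.3.3, with figures in matplotlib 3.10.9. CPM were taken over non-mitochondrial UMIs without Gm42418, AY036118 and Lars2. Intervals are exact Poisson or Clopper-Pearson at 95% and describe counting error alone. No test was made, there being 1 library. Coordinates are GRCm38, with gene models of GENCODE for 32235 genes. Macrophage nuclei had at least 0.2% of UMIs from C1q genes, early myeloid nuclei at least 0.3% from Mpo, Elane, Prtn3, Ctsg and Ms4a3, and erythroid nuclei at least 0.3% from 10 red cell genes (Slc4a1, Alas2, Sptb, Ermap, Epb42, Rhag, Kel and Trim10 among them), each with at least 3 UMIs from 2 or more genes. Each of these sets was taken without the granulocyte nuclei and without the sets named before it. Clusters were not built, and no doublet caller was run. In its place, deep barcodes were left out as an alternative (over 9806 UMIs or 87481 ATAC counts). The code was tested on simulated data. Some genes are not reported here.

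The 8 rule genes and the transcription factors were named, with up to 4 genes of widest ratio per list, the 10 genes and peaks of highest ratio outside the lists, and the peaks at the starts of the rule genes. Genes named beyond these were chosen after their values were seen. The members and lists were chosen with earlier results of these data known. Alternatives changed the share, depth, mitochondrial and count limits, the scaling, thinning, free RNA, peak assignment and number of peaks. An equal weight per barcode and a share of 0.5% were added after the data were seen.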

Additional observations from a re-analysis of the deposited data

How the results depend on the processing

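Of the values recomputed, 214 that answer a comparison stayed close to the value reported and 57 moved. With a minimum share of 1% there were 71 nuclei (1.58%), with at most 10% mitochondrial UMIs 56 (3.99%) and with at least 1000 UMIs 64 (1.93%). RNA medians of log2 ratios moved as follows. The S100 and stefin list stood at 4.36 with a share of 1%, 4.92 with at most 10% mitochondrial UMIs, 4.35 without deep barcodes, 10.1 with free RNA subtracted, 4.27 thinned and 6.36 without a minimum of UMIs. The NADPH oxidase stood at 4.58 with a share of 1%, 5.07 with at most 10% mitochondrial UMIs and 5.38 with free RNA subtracted. Other secondary granule genes stood at 5.13 with at most 10% mitochondrial UMIs, 9.03 with free RNA subtracted, 2.12 thinned, 3.20 with at least 50 UMIs and 4.96 without a minimum. Primary granule genes stood at 5.20 with free RNA subtracted and 1.97 thinned, tertiary and late genes at 3.06 thinned and 2.87 with at least 50 UMIs, and transcription factors, at 0.53 in the report, stood at -0.24 with at most 10% mitochondrial UMIs.

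In chromatin, tertiary and late loci stood at 2.73 with a share of 1%, 2.70 with a share of 0.5%, 3.66 with at most 10% mitochondrial UMIs, 2.18 with at least 1000 UMIs, 2.78 without deep barcodes, 3.18 with equal weights and 2.92 in peaks within 1 kb of the start. NADPH oxidase loci stood at 1.90, 1.85 and 2.57 under the first 3 of these, 1.91 without deep barcodes, 2.15 with equal weights and 0.65 within 1 kb. Other secondary granule loci stood at 2.80 with at most 10% mitochondrial UMIs and 1.34 within 1 kb. S100 and stefin loci stood at 3.13 with at most 10% mitochondrial UMIs, 2.87 without deep barcodes and 3.0 with equal weights, and transcription factor loci at 0.93, 0.74 and 0.82.

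Counts of calls moved as well. Loci called higher were 2119 and lower 6963 with a share of 1%, 2709 and 7278 with at most 10% mitochondrial UMIs, and lower 7055 without deep barcodes and 6346 with a share of 0.5%. Peaks called higher were 13090 with at most 10% mitochondrial UMIs. Genes called lower in RNA were 1050 with 1 count added, and genes called higher 10596 without a minimum. The TEAD motif stood at 12.7% in 2000 peaks and the EBF motif at 5.0% in 500 peaks.

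Direction turned for erythroid and chondrocyte genes and some loci. Alas2, Hbb-bt and Kel stood at -2.23, -1.04 and -3.51 with a share of 1%, at -1.94, -2.33 and -2.89 with at most 10% mitochondrial UMIs, at -1.06, -0.72 and -1.50 without deep barcodes, at -1.34, -0.51 and -0.075 thinned and at -0.43, -0.14 and -0.55 with equal weights. Col10a1 stood at 0.017 without deep barcodes, 6.0 with free RNA subtracted, 0.057 thinned and 0.15 with equal weights, and Epb42 at 0.060 thinned. Within 1 kb of the start, Ncf1 and Pglyrp1 stood at -1.30 and -0.35. The causes were not tested. The median log2 ratio of all genes, reported as 0.04 in RNA, stood at 0.33 with 1 count added, 0.87 without a minimum, 0.16 with a share of 1%, 0.15 with free RNA subtracted and -0.24 with equal weights, where that of all loci in chromatin stood at -0.24 as well.

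No paired analysis was possible because there was 1 library, and leaving out replicates was not possible for the same reason. Depth limits single nuclei, with a median of 19 granule UMIs, and genes under 21.2 CPM.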

Other observations

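Peaks over immunoglobulin heavy chain variable genes, which are usually opened in B-lineage cells, were accessible in granulocyte nuclei. These peaks were chosen after their values were seen. The 27 peaks over Ighv genes, between bases 113577989 and 116000466 of chromosome 12, summed to 966 ATAC counts in granulocyte nuclei, which is 230 CPM (216 to 245), and 82 of the 110 nuclei had a count. Early myeloid nuclei stood at 223 CPM, macrophage nuclei at 21.8 CPM, erythroid nuclei at 9.09 CPM and all other barcodes at 16.9 CPM. Barcodes chosen by B-lymphoid genes, 61 in all, stood at 66.1 CPM (55.2 to 78.6), below the granulocyte and early myeloid nuclei. Of 23 Ighv loci compared, 20 were called higher in granulocyte nuclei and 2 lower, with a median log2 ratio of 3.80, where 5.74% of all loci were called higher. Late nuclei stood at 202 CPM and early nuclei at 261 CPM.

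No UMI of an Ighv gene was found in granulocyte nuclei. Vpreb1, Igll1, Ms4a1 and Rag1, which define B-lineage cells, were at 0 UMIs, and the B-lymphoid list gave 20 UMIs in 12 of the 110 nuclei, 10 of them from Ighm. In chromatin 2 of the 10 loci of that list were called higher and 1 lower, where 5.74% of all loci were called higher and 15.6% lower. Igll1 was among the 2, at 13.6 CPM in granulocyte nuclei, against 5.96 CPM in the others, and the locus of Pax5 stood at 25.5 CPM, against 45.2 CPM.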
